A study of Mus musculus with 6 samples.

Results

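Fibro-adipogenic progenitors (FAPs) are the connective tissue cells that lie between the fibres of skeletal muscle, and 10 genes known from them were followed here through RNA-seq libraries of sorted muscle stem cells (MuSCs). The genes were taken by symbol from the deposited table: Dcn, Lum, Dpt, Fbln1, Mfap5, Gsn, Clec3b, Pi16, Dpp4 and Ly6a. They are 10 of 22081 genes, and all 10 had a mean normalized count of at least 5 and entered the comparison of 18562 genes. There were 6 libraries from freshly isolated MuSCs of adult C57BL/6 mice, 3 with the genotype label Control, whose titles say WT, and 3 with the genotype label Taf4asKO, whose titles say Taf4a-KO. Taf4a, called Taf4 in the table, encodes a subunit of the general transcription factor TFIID.

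The study describes both control and Taf4asKO mice as Taf4a fl/fl, with loxP sites around a pair of exons. The Taf4asKO mice also carried a tamoxifen-inducible Cre recombinase expressed from the Pax7 locus and received tamoxifen. The controls were littermates, described in the study as Taf4a fl/fl mice with or without the Cre, and some mice also carried a Pax7-zsGreen reporter. It also lists wild type C57BL/6 mice among its strains. Which of these genotypes the libraries titled WT had, and the sex and reporter of each library, was not given in the sources used here. Whether the mice of the control libraries received tamoxifen was not given either. Pax7 drives the Cre in MuSCs, so FAPs were not the cells that the deletion was aimed at. Cells carrying CD45 (the product of Ptprc), CD31 (Pecam1) or SCA1 (Ly6a) were depleted, and MuSCs were then sorted on integrin alpha-7 (Itga7) or on the reporter. On reanalysis in the study, a minority of the sorted cells lay outside the MuSC gate. The labels do not say whether the libraries of a group came from separate mice, so every p-value below measures only the spread between these libraries.

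FAPs are defined by PDGFR-alpha and SCA1 on their surface. They secrete much of the collagen, proteoglycan and elastic fibre scaffold of muscle, support MuSCs during repair, and give rise to fat and fibrous tissue in diseased muscle. MuSCs also make matrix of their own, above all collagens of the niche, so a matrix gene in a MuSC library is not by itself a sign of another cell.

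The values are normalized counts, that is, reads of a gene divided by a size factor of the library and rounded to whole numbers by the authors. The libraries summed to 12338676 to 14551732 normalized counts, and the spacing of the values gave 10588144 to 17625328 reads a library. Pax7, the defining transcription factor of MuSCs, had 12082 to 13007 normalized counts in control and 10363 to 11164 in Taf4asKO, lower in every Taf4asKO library but not past the threshold (log2 fold change -0.21, limma adjusted p = 0.161). The 10 MuSC markers together summed to 54807 to 56039 in control and 53525 to 56875 in Taf4asKO. Of these markers, 4 fell and 3 rose past the threshold, with a median log2 fold change of -0.27. Taf4 itself did not separate the labels, with 613, 534 and 478 normalized counts in control replicates 1, 2 and 3 and 631, 565 and 574 in Taf4asKO replicates 1, 2 and 3 (log2 fold change 0.13, SE 0.12, limma adjusted p = 0.524). The table gives 1 value for the whole gene and none for the floxed exons, so it does not check the deletion. Taf4asKO below means the libraries with that label.

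Both Dpt and Gsn passed the test, in opposite directions, and the letters upstream of their RefSeq starts (GRCm38.p6, the same build as mm10) are shown because they allow the 2 genes to be compared. Each window holds the 250 bases before a start, 5′ to 3′, and Gsn has 3 listed starts. Capitals mark 3 motifs: CCAAT (or ATTGG on the other strand), GGGCGG (or CCGCCC) and TATAAA (or TTTATA). No 2 of the motifs marked share a base.
Dpt, chr1:164796413-164796662 (+): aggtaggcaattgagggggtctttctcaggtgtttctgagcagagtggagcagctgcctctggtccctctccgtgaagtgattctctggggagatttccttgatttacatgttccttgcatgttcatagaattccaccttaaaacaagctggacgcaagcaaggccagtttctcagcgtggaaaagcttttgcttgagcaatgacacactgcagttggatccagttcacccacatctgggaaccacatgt
Gsn start 1, chr2:35256109-35256358 (+): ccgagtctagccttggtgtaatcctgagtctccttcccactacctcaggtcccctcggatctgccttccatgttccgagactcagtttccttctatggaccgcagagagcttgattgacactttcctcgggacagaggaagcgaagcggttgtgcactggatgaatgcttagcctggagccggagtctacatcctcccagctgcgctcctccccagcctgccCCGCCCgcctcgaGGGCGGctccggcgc
Gsn start 2, chr2:35266494-35266743 (+): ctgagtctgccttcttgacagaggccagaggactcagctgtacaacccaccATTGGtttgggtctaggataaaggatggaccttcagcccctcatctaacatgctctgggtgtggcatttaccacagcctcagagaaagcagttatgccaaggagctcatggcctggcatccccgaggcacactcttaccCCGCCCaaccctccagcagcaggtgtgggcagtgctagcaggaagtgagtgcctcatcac
Gsn start 3, chr2:35282130-35282379 (+): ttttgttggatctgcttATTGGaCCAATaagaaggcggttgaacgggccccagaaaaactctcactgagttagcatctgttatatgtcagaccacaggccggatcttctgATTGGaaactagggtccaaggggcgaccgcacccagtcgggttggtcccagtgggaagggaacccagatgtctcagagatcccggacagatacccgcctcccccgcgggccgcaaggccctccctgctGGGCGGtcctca

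The Dpt window held none of the 3 motifs on either strand. The first Gsn start had 1 GGGCGG on each strand, 28 and 15 bases before the start. The second had 1 CCAAT 199 bases and 1 GGGCGG 60 bases upstream, both on the other strand, and the third had 3 CCAAT matches and 1 GGGCGG. Among 32851 RefSeq promoter windows of the same length, 33.8% held CCAAT, 32.7% held GGGCGG and 12.4% held TATAAA, so a match or its lack is common. Windows were at hand for 5 of the 10 genes. Pi16 had a CCAAT 64 bases upstream, Dpp4 a TATAAA 227 bases upstream, and 1 of the 2 Fbln1 starts a GGGCGG 11 bases upstream. These are matches of letters, with no measurement of binding.

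The comparison asked which of the 10 genes differed between Taf4asKO and control MuSCs. Dpt fell and Gsn rose, and the other 8 had positive log2 fold changes that did not pass the threshold of an adjusted p under 0.05 and a fold of at least 1.3. Over all tested genes, 12.6% passed, 6.71% lower and 5.93% higher, beside 1 lower and 1 higher among the 10. The sign was less even than the calls: 9 of 10 log2 fold changes were positive, with a median of 0.77, against 50.4% positive and a median of 0.004 over all tested genes. Without control replicate 1 the median of the 10 was 0.40, and Ly6a and Dpp4 were negative as well. In bulk samples, a change in the number of cells of a type and a change in the RNA per cell cannot be told apart. With the replicate number of the titles as a block, Dcn, Lum, Clec3b and Pi16 passed too, which made 5 higher and 1 lower, where 9.09% and 8.98% of all tested genes passed, 18.1% in all.

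**Figure D1:**
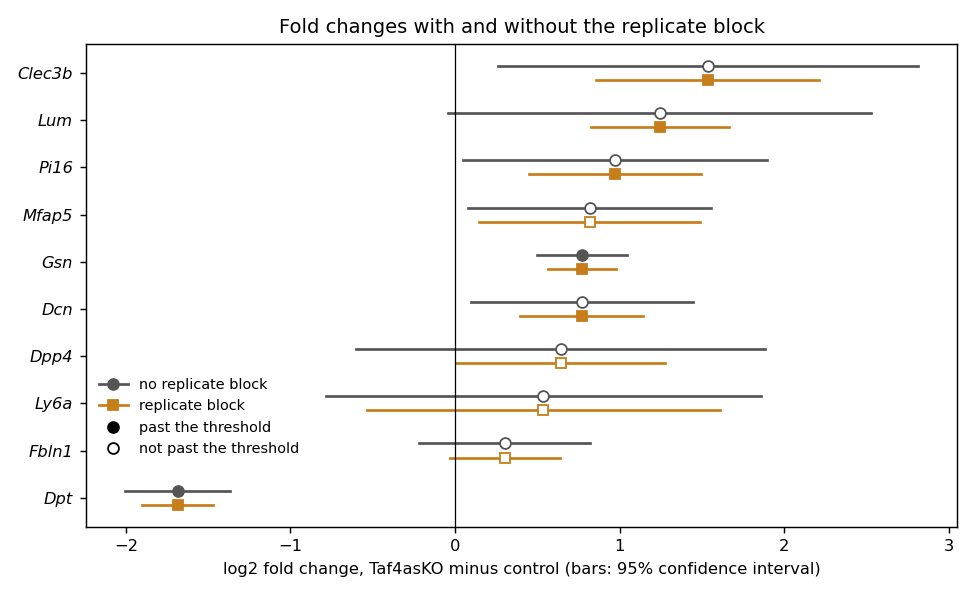
Log2 fold change of Taf4asKO over control for each of the 10 genes on the log2(value + 1) scale (x axis), with 95% intervals as lines, from the limma fits without (circles) and with (squares) the replicate block, filled where the gene passed. Dpt lies at -1.69 and Gsn at 0.77 and both are filled in both fits, while Dcn, Lum, Clec3b and Pi16 are filled only with the block.

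Dpt encodes dermatopontin, a small matrix protein that binds decorin and collagen and promotes fibril assembly. It lies on the plus strand of chromosome 1 (164796644 to 164824266, mm10; ENSMUSG00000026574). Its normalized counts were 2277, 2634 and 2585 in control replicates 1, 2 and 3 and 613, 887 and 855 in Taf4asKO replicates 1, 2 and 3. Every Taf4asKO library was below every control library, which held in the downward direction for 16.4% of tested genes. The means were 2499 ± 194 and 785 ± 149.8 (SD, n = 3 each), 3.18-fold lower in Taf4asKO. The log2 fold change was -1.69 (SE 0.14, 95% interval -2.0 to -1.37, limma adjusted p = 0.000136). The ratio of Taf4asKO to control was 0.269, 0.337 and 0.331 within replicate numbers 1, 2 and 3. Dpt passed in the same direction under all 17 alternative fits.

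Gsn encodes gelsolin, which severs and caps actin filaments inside the cell and also exists as a secreted plasma form, so it is not a matrix gene in the strict sense. It lies on the plus strand of chromosome 2 (35256380 to 35307892; ENSMUSG00000026879). It had 13977, 15171 and 17350 normalized counts in control replicates 1, 2 and 3 and 24106, 25908 and 29268 in Taf4asKO replicates 1, 2 and 3. All Taf4asKO libraries were above all control libraries, as for 16.6% of tested genes. Means were 15499 ± 1710.3 and 26427 ± 2619.9 (SD, n = 3 each), 1.71-fold higher, and the log2 fold change was 0.77 (SE 0.12, 95% interval 0.50 to 1.04, limma adjusted p = 0.00356). The ratios within replicate numbers 1, 2 and 3 were 1.72, 1.71 and 1.69, the least varied of the 10 genes. Of the 7 other gelsolin-family genes tested, 0 passed with limma and 0 with limma-voom, 1 had an unadjusted p under 0.05, and with the block 1 rose (median log2 fold change -0.03).

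Dcn and Lum encode decorin and lumican, small leucine-rich proteoglycans that bind collagen and regulate the width and spacing of its fibrils, and they lie near each other on chromosome 10. Dcn (97479609 to 97518143; ENSMUSG00000019929) had 1203, 2240 and 3425 normalized counts in control replicates 1, 2 and 3 and 2945, 4191 and 3699 in Taf4asKO replicates 1, 2 and 3. Control replicate 3 lay inside the Taf4asKO range, so the groups overlapped. Its log2 fold change was 0.77 (SE 0.30, 95% interval 0.09 to 1.44), with a limma adjusted p of 0.126 and, with the replicate block, of 0.00968. Within replicate numbers 1, 2 and 3 Taf4asKO was 2.45-fold, 1.87-fold and 1.08-fold higher. The value depended on single control libraries: without control replicate 3, Dcn passed with a log2 fold change of 1.12 (adjusted p = 0.0208), and without control replicate 1 it was 0.37 (adjusted p = 0.273). Without replicate 1 of both groups, in a fit without the block, it was 0.51 (adjusted p = 0.237).

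Lum (97565128 to 97572703; ENSMUSG00000036446) had 30, 139 and 140 normalized counts in control replicates 1, 2 and 3 and 100, 321 and 249 in Taf4asKO replicates 1, 2 and 3. The first library of each group was low, and Taf4asKO replicate 1 was below control replicates 2 and 3. The log2 fold change was 1.24 (SE 0.58, 95% interval -0.04 to 2.53), with a limma adjusted p of 0.187 and, with the block, of 0.00118. Without control replicate 1 it was 0.52 (adjusted p = 0.46), and without replicate 1 of both groups 1.01 (adjusted p = 0.0522). Among the 14 other small leucine-rich proteoglycan genes tested, 2 rose, Aspn (asporin, log2 fold change 1.17, adjusted p = 0.0363) and Omd (osteomodulin, 0.87, adjusted p = 0.0477). The median over these 14 was 0.36. With the block 6 rose and 1 fell.

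Fbln1 and Mfap5 belong to elastic fibres and microfibrils: fibulin-1 is a glycoprotein of elastic fibres and basement membranes, and the Mfap5 product binds fibrillin. Fbln1 (chromosome 15, 85205949 to 85286535; ENSMUSG00000006369) had 205, 292 and 416 normalized counts in the control libraries and 299, 420 and 372 in Taf4asKO, in replicate order, a log2 fold change of 0.30 (SE 0.23, 95% interval -0.22 to 0.82, limma adjusted p = 0.431). Mfap5 (chromosome 6, 122513583 to 122529290; ENSMUSG00000030116) had 24, 46 and 63 in the control libraries and 79, 82 and 61 in Taf4asKO (0.82, SE 0.33, 95% interval 0.08 to 1.55, limma adjusted p = 0.135). In both genes replicate number 3 alone went the other way, with Taf4asKO at 0.894 of control for Fbln1 and 0.968 for Mfap5. Without control replicate 1 the log2 fold change was 0.047 for Fbln1 (adjusted p = 0.913) and 0.44 for Mfap5 (adjusted p = 0.323). Without control replicate 3 it was 0.56 for Fbln1 (adjusted p = 0.109) and 1.12 for Mfap5 (adjusted p = 0.0561). Without replicate 1 of both groups it was 0.18 for Fbln1 (adjusted p = 0.666) and 0.39 for Mfap5 (adjusted p = 0.505). Of the 25 other elastic fibre and microfibril genes, 4 fell and 2 rose, with a median of 0.16. The falls with the largest change were Fbln2 (fibulin-2, -1.31, adjusted p = 0.000797), Emilin1 (-1.16, adjusted p = 0.00122) and Hmcn1 (hemicentin-1, -0.86, adjusted p = 0.00718). The rises were Lox, the enzyme lysyl oxidase that crosslinks collagen and elastin (1.59, adjusted p = 0.0366), and Mfap1a (0.71, adjusted p = 0.0158), whose product is known as a splicing factor in spite of its name. With the block, 5 of this list fell and 8 rose.

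Clec3b and Pi16 code for secreted or surface proteins that mark fibroblasts of the progenitor kind. Clec3b encodes tetranectin, which binds plasminogen (chromosome 9, 123150946 to 123157432; ENSMUSG00000025784). It had 6, 20 and 35 normalized counts in control replicates 1, 2 and 3 and 27, 63 and 71 in Taf4asKO replicates 1, 2 and 3. Only control replicate 3 exceeded the lowest Taf4asKO library. The log2 fold change was 1.54 (SE 0.57, 95% interval 0.26 to 2.81), with a limma adjusted p of 0.109 and, with the block, of 0.0057. Without control replicate 3 it passed at 2.06 (adjusted p = 0.0462), without control replicate 1 it was 0.88 (adjusted p = 0.245), and without replicate 1 of both groups it was 1.3 (adjusted p = 0.112).

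Pi16 (chromosome 17, 29318882 to 29329413; ENSMUSG00000024011) had 26, 32 and 67 normalized counts in the control libraries and 44, 85 and 117 in Taf4asKO, in replicate order. Taf4asKO was higher within each replicate number, by 1.69-fold, 2.66-fold and 1.75-fold. That held for 5 of the 10 genes and for 25.6% of all tested genes. The log2 fold change was 0.97 (SE 0.41, 95% interval 0.05 to 1.89), with a limma adjusted p of 0.154 and, with the block, of 0.0155. Of its exon bases, 3.49% are shared with a gene on the opposite strand, AC162182.1, and whether the counting used the strand is not stated.

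Dpp4 and Ly6a had the largest adjusted p-values of the 10 genes. Dpp4 encodes CD26, a peptidase of the cell surface that marks progenitor-like fibroblasts (chromosome 2, 62330073 to 62412231, minus strand; ENSMUSG00000035000). It had 13, 47 and 74 normalized counts in control replicates 1, 2 and 3 and 33, 76 and 72 in Taf4asKO replicates 1, 2 and 3, a log2 fold change of 0.64 (SE 0.56, 95% interval -0.60 to 1.88, limma adjusted p = 0.491). Without control replicate 1 the log2 fold change was -0.059 (adjusted p = 0.943), and without replicate 1 of both groups it was 0.32 (adjusted p = 0.586). Dpp4 shares 3.67% of its exon bases with Gm13561 on the opposite strand. Of 4 relatives tested, 1 passed: Dpp6, a potassium channel subunit without peptidase activity, fell (-2.65, adjusted p = 0.00374).

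Ly6a encodes SCA1, the antigen used both to define FAPs and to deplete cells before this sort (chromosome 15, 74994877 to 74998031, minus strand; ENSMUSG00000075602). It had 2, 14 and 10 normalized counts in the control libraries and 8, 11 and 13 in Taf4asKO, in replicate order, where 3 reads, the floor used here for counting error, are worth 2.25 to 3.5 normalized counts. Its log2 fold change was 0.54 (SE 0.59, 95% interval -0.78 to 1.86, limma adjusted p = 0.599), -0.16 without control replicate 1 (adjusted p = 0.86) and 0.013 without replicate 1 of both groups (adjusted p = 0.992). Its interval holds 0 as well as the log2 fold change of Dcn. Ly6a belongs to a multigene family, and reads that mapped to several places were removed, so its level is uncertain. Of 12 relatives listed, 5 were tested, and 0 passed with limma, with limma-voom, with the block or at an unadjusted p under 0.05 (median -0.24). Among the other gate genes, Pecam1 had 31, 86 and 64 normalized counts in the control libraries and 77, 80 and 142 in Taf4asKO (0.77, limma adjusted p = 0.199), Ptprc did not enter the test, and Itga7 fell from 4811 ± 609.7 to 3563 ± 334 (SD, n = 3 each; -0.43, adjusted p = 0.0377).

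**Figure D2:**
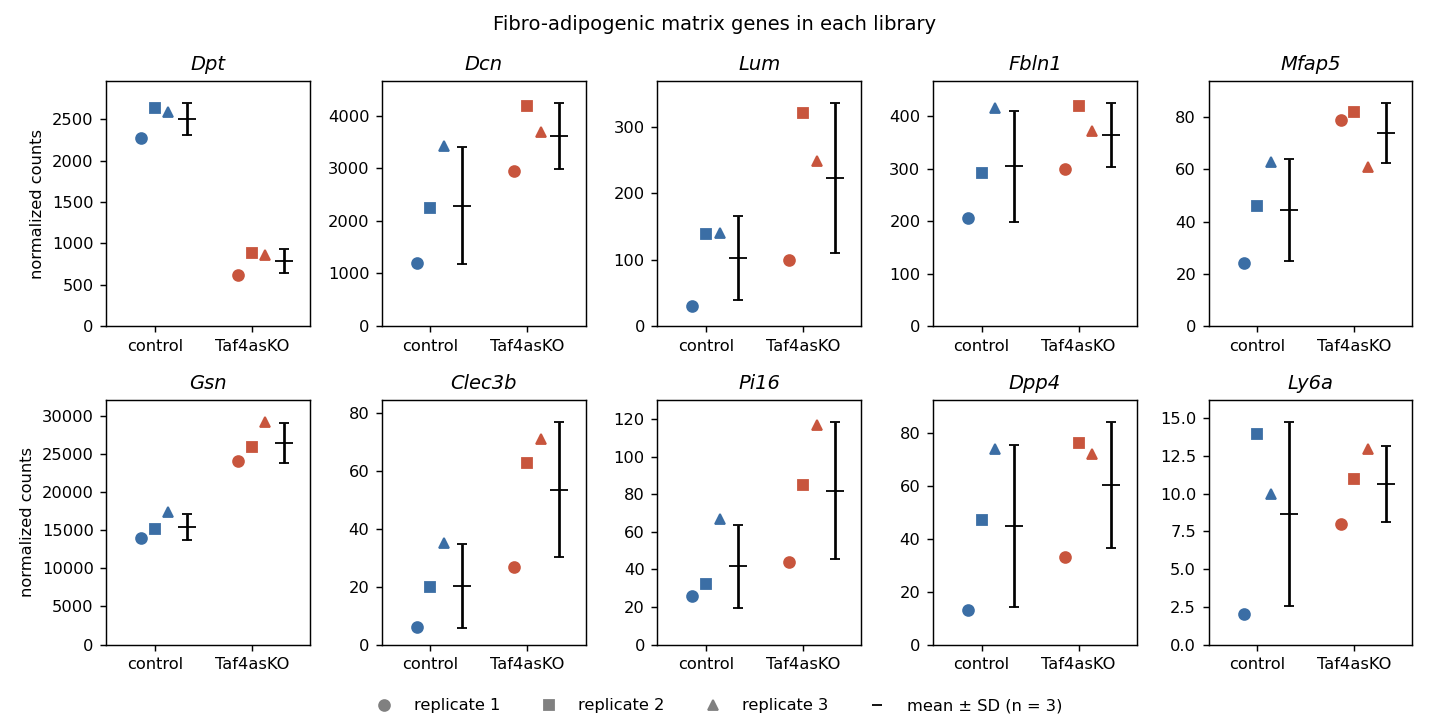
Normalized counts (y axes, each from 0) of the 10 genes in the 6 libraries, with 1 panel a gene, a point shape for each replicate number, and the mean ± SD of the 3 libraries of each group. Only the Dpt and Gsn panels show groups that lie apart, where 6123 of all 18562 tested genes had groups without overlap, higher or lower. Replicate 1 is the lowest point of both groups in every panel but that of Mfap5.

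Per kilobase of exon, the scale on which genes can be set side by side, the control levels fell in the order Gsn (4909.5 ± 542 normalized counts per kb), Dpt (1449 ± 112), Dcn (392 ± 190), Fbln1 (69.7 ± 24.3), Lum (42.1 ± 25.8), Clec3b (20.5 ± 14.6), Mfap5 (12.4 ± 5.45), Ly6a (7.19 ± 5.07), Dpp4 (7.07 ± 4.84) and Pi16 (6.55 ± 3.48), each as SD with n = 3. The first 4 were separated from each other in every control library's range, while from Fbln1 downward each gene's range overlapped that of its neighbour. In Taf4asKO the levels of Dpt and Dcn changed places. Dcn had 619 ± 107 normalized counts per kb (range 504 to 718) and Dpt 455 ± 86.9 (range 356 to 515), and these ranges overlapped. The ratio of Dcn to Dpt within a library, in normalized counts, was 0.528, 0.85 and 1.32 in control replicates 1, 2 and 3 and 4.80, 4.73 and 4.33 in Taf4asKO replicates 1, 2 and 3.

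Whether the genes moved together was then asked within the groups, where the genotype label plays no part. Dpt, the gene that fell, shared its lowest library in each group with most of the others. Control replicate 1 was the lowest control library for 10 of 10 genes (32.2% of all tested genes), and Taf4asKO replicate 1 the lowest of its group for 9 of 10 (34.7%), with Mfap5 as the exception. Replicate 1 was lowest in both groups for 9 of 10, against 15.9% of all tested genes. Control replicate 3 was the highest control library for 8 of 10, all but Dpt and Ly6a, against 27.5%. In Taf4asKO the highest library was replicate 2 for 6 genes and replicate 3 for 4. The genes share libraries, so these counts are 1 pattern over 6 libraries and not 10 observations.

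Dpt and Gsn varied less among the control libraries than the other 8 genes, while in Taf4asKO Dpt lay within their range. The highest over the lowest library was 1.16 in control and 1.45 in Taf4asKO for Dpt, and 1.24 and 1.21 for Gsn, near the median of all genes with at least 5 normalized counts in each library (1.4 and 1.25). For the other 8 it ran from 2.03 to 7 in control and from 1.34 to 3.21 in Taf4asKO. The sum of these 8 was 1509, 2830 and 4230 normalized counts in control replicates 1, 2 and 3 and 3535, 5249 and 4654 in Taf4asKO replicates 1, 2 and 3. Control replicate 1 thus had the lowest sum and Taf4asKO replicate 2 the highest, and control replicate 3 exceeded Taf4asKO replicate 1. Dcn made up 79.2% to 83.3% of these sums. Without Dcn the sum of the other 7 was 306, 590 and 805 in control replicates 1, 2 and 3 and 590, 1058 and 955 in Taf4asKO replicates 1, 2 and 3, with the same lowest and highest library.

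Each gene's deviations from its group means over the 6 libraries, which leave 4 degrees of freedom, were correlated with the mean deviation of the other 9 as a description. Pearson's r was 0.9998 for Dpp4, 0.99 for Clec3b, 0.961 for Dcn, 0.953 for Fbln1, 0.951 for Lum, 0.846 for Ly6a, 0.834 for Gsn, 0.787 for Pi16, 0.744 for Mfap5 and 0.718 for Dpt. Dpt was thus the least alike but still positive. Against single genes its r was 0.585 with Dcn and ran from 0.219 with Mfap5 to 0.825 with Lum. Values of at least 0.7 with the mean deviation of the 10 genes were found for 14.3% of the other tested genes, and of at least 0.9 for 4.38%. All points share the same libraries and their scaling. By the rule for naming, the genes most alike were Aebp1 (r = 0.999), Fam114a1 (0.9985), Pcolce, an enhancer of procollagen processing (0.998), the fibulin Fbln5 (0.9972) and the receptor Tlr3 (0.9971), and 0 of these 5 passed the test between the groups with limma. With the block Aebp1 (log2 fold change 0.48, adjusted p = 0.0254), Fbln5 (0.61, adjusted p = 0.031) and Tlr3 (0.71, adjusted p = 0.0172) passed as higher.

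**Figure D3:**
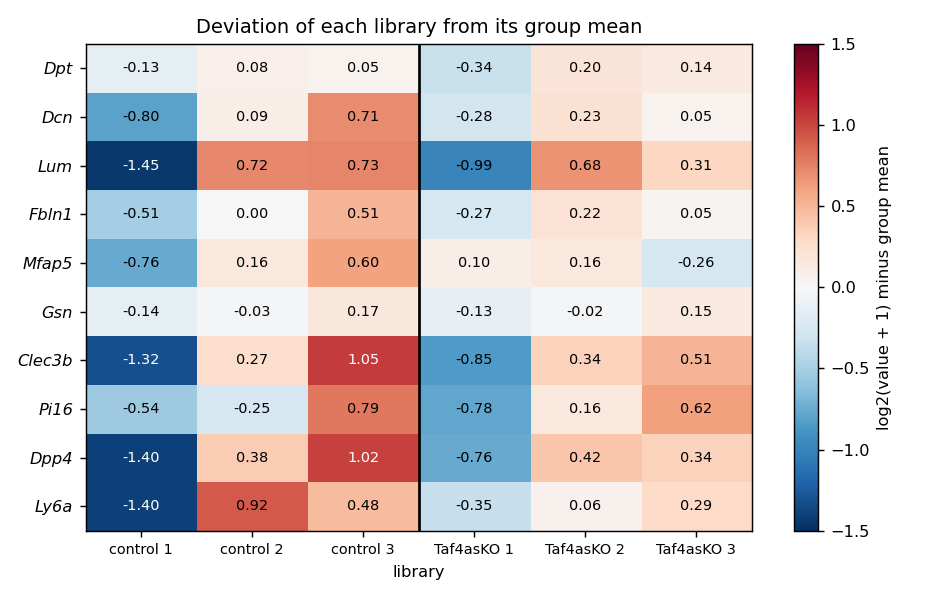
Deviation of each of the 10 genes (rows) from its own group mean in each of the 6 libraries (columns), as log2(value + 1) differences printed in the cells and shown in colour. The columns of control replicate 1 and Taf4asKO replicate 1 hold the low values, Dpt included and Mfap5 in Taf4asKO excepted, while the differences of Dpt are small beside those of Clec3b, Lum or Dpp4.

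Among 39 other FAP genes tested, 7 fell and 5 rose, and the median log2 fold change of 0.16 was well below that of the 10. The 3 largest falls were Cd34, a surface sialomucin that quiescent MuSCs also carry (-1.97, limma adjusted p = 5.83e-05), Scara5, a ferritin receptor (-1.69, adjusted p = 0.00581), and Col3a1, the chain of type III collagen. Col3a1 had 46225, 47112 and 47700 normalized counts in the control libraries and 13082, 17573 and 16995 in Taf4asKO, in replicate order (-1.58, adjusted p = 0.000126). As with Dpt, its control libraries were close together and all Taf4asKO libraries were far below them. The 3 largest rises were Lox, given above, Il33, an alarmin cytokine (1.02, adjusted p = 0.0208), and Sema3c, a guidance ligand (1.0, adjusted p = 0.0387). With the block 7 fell and 14 rose. With any single Taf4asKO library left out, 0 of the list rose and 5 fell. With a single control library left out, 1 to 9 rose and 5 to 8 fell. Replicate 1 was lowest in both groups for 22 of the 39.

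Pdgfra, whose product defines FAPs, had 49, 139 and 152 normalized counts in control replicates 1, 2 and 3 and 160, 203 and 247 in Taf4asKO replicates 1, 2 and 3. All Taf4asKO libraries were above all control libraries, and replicate 1 was the lowest of each group, as for 9 of the 10 genes. Its log2 fold change was 0.98 (SE 0.37), with a limma adjusted p of 0.115 and, with the block, of 0.00927.

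Markers of other cells that the sort could hold followed the libraries of the 10 genes to different degrees. The median r of a list's deviations with the mean deviation of the 10 genes was 0.972 for tenocyte, 0.849 for Schwann and glial, 0.837 for pericyte and smooth muscle, 0.822 for endothelial, 0.714 for myofibre and 0.603 for adipocyte markers. It was -0.577 for immune and -0.10 for muscle stem cell markers. For the 39 other FAP genes it was 0.695, below the tenocyte, Schwann, pericyte, endothelial and myofibre lists. Replicate 1 was lowest in both groups for 9 of 10 tenocyte, 8 of 10 Schwann, 8 of 10 endothelial, 5 of 10 pericyte, 6 of 9 myofibre, 1 of 3 adipocyte and 1 of 5 immune markers. The 10 tenocyte markers (cells of tendon) summed to 2277, 6727 and 15763 normalized counts in control replicates 1, 2 and 3 and 8085, 18382 and 16423 in Taf4asKO replicates 1, 2 and 3. Their log2 fold changes were all positive (median 1.136). Thbs4 made up 48.3% to 54.6% of the sum, and the other 9 had the same lowest and highest library. Of the list 1 rose, Kcna6 (1.46, adjusted p = 0.0304), and with the block 8 did. The 10 Schwann and glial markers summed to 3289 to 5846 in control and 7009 to 8276 in Taf4asKO, where 6 rose and 1 fell, and 7 rose and 1 fell with the block (median 0.86). Pmp22 made up 35.8% to 48.5% of that sum.

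The 10 endothelial markers summed to 965 to 1554 normalized counts in the control libraries and 1613 to 2334 in Taf4asKO, with 0 past the threshold by limma or limma-voom, 7 at an unadjusted p under 0.05 and 5 past it with the block (median 0.93). Tek made up 40.3% to 71.7% of the endothelial sum. The other 9 summed to 273, 696 and 718 in control replicates 1, 2 and 3. In Taf4asKO replicates 1, 2 and 3 they summed to 690, 850 and 1394, so control replicate 3 exceeded Taf4asKO replicate 1. The 10 pericyte and smooth muscle markers summed to 26420 to 31376 and 27531 to 32454, where 2 rose, and 6 with the block (median 0.54). Notch3 made up 39.0% to 59.9% of that sum and had a log2 fold change of -0.33 (adjusted p = 0.131), while the other 9 summed to 10582, 17061 and 13925 in control replicates 1, 2 and 3 and 16794, 19781 and 17804 in Taf4asKO replicates 1, 2 and 3. Of 5 immune markers tested 0 passed by limma or limma-voom, 2 had an unadjusted p under 0.05, and with the block 1 rose, Lyz2, the lysozyme of myeloid cells (1.3, adjusted p = 0.00396; sums 479 to 585 and 701 to 949, median -0.03). Lyz2 set the direction of the immune sum, since the other 4 summed to 385, 160 and 265 in control replicates 1, 2 and 3 and 240, 220 and 218 in Taf4asKO replicates 1, 2 and 3. Of 9 myofibre markers 1 fell (sums 2246 to 6090 and 2677 to 3319, median 0.33). Of 3 adipocyte markers tested 0 passed by either tool, and 1 had an unadjusted p under 0.05 (median 0.16). With the block 1 rose, Fabp4, a fatty acid binding protein (1.0, adjusted p = 0.0044). The 5 adipocyte markers with values, including those not tested, summed to 463 to 700 in control and 581 to 698 in Taf4asKO. Only the tenocyte, Schwann and endothelial lists had a median above that of the 10 genes. No marker of the tenocyte, Schwann, endothelial or pericyte lists was at 0 in any library. The part of such cells in the values of the 10 genes was not tested.

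**Figure D4:**
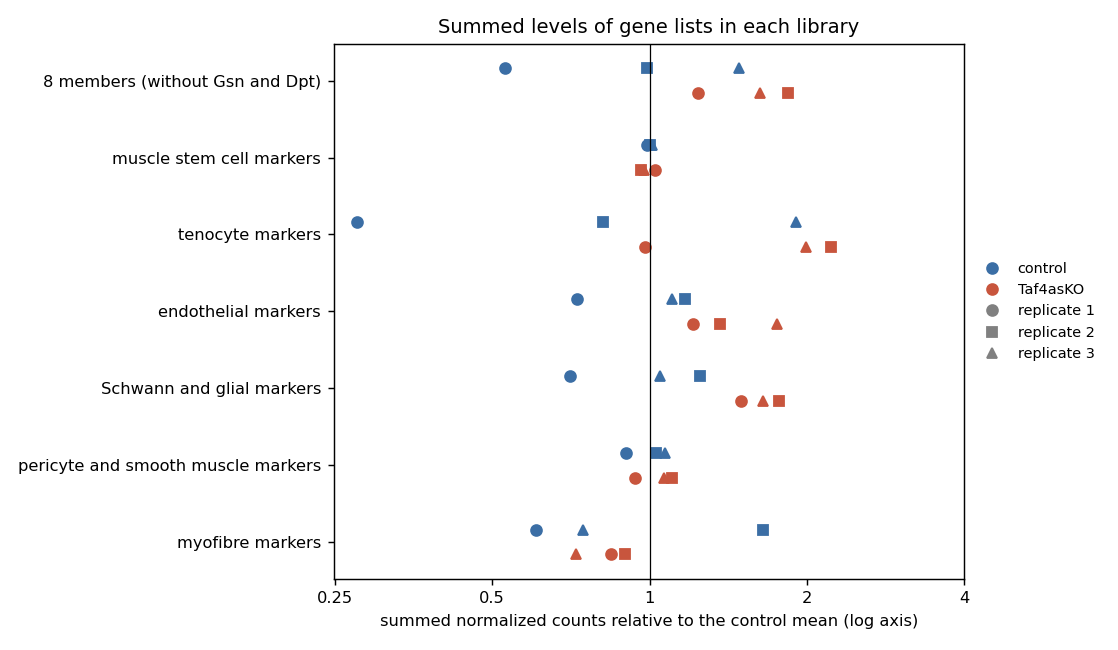
Summed normalized counts of the 8 genes without Dpt and Gsn and of 6 marker lists (rows) in each of the 6 libraries, relative to the mean of the 3 control libraries (x axis, log scale), with colour for the group and shape for the replicate number. The tenocyte sum, 2277 to 18382 normalized counts, has the same lowest and highest library as the sum of the 8 genes, most of which is Dcn, while the muscle stem cell sums lie close to 1.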

How the data were processed

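RNA-seq was made from 6 libraries of sorted mouse MuSCs (10 ng of RNA each, stranded total RNA kit). The authors trimmed reads with Trimmomatic 0.39, aligned them to mm10 with STAR 2.6.0c, counted exon reads with featureCounts 1.6.0 without multi-mapping reads and normalized with DESeq2 1.14.1. The deposited values are a score: reads divided by a size factor and, as the values show, rounded to whole numbers, called normalized counts. Size factors were recovered from the spacing of the values (0.858 to 1.33, error at most 0.338% in 15 simulated libraries, the largest for a factor of 1), which gave 10588144 to 17625328 reads a library.

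The two-sided test of limma 3.58.1 (R 4.3.3; lmFit, then eBayes with a trend, no covariate) was run for genes averaging at least 5, on log2(value + 1), which understates folds of low genes. Passing meant p under 0.05 after Benjamini-Hochberg adjustment together with a 1.3-fold change or more. The count model planned for raw counts was not run, because the values are not raw counts. The fit was tested on simulated data.

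The titles number the replicates alike in both groups. Deviations of same-numbered libraries correlated at 0.235, 0.126 and 0.15, so the numbers were taken as pairs and blocked values are printed where they changed a call. The study describes the controls as littermates, and the labels do not say what a number stands for.

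The 10 genes and all lists (other FAP genes, families of the members, markers of muscle stem, endothelial, immune, tendon, glial, mural, myofibre and fat cells) were chosen with earlier results of these data known. Named besides the 10 were Taf4, Pax7, Pdgfra, the gate genes, from each list at most 3 genes a direction with the largest passing change and a mean of at least 20, and the 5 genes with a mean of at least 50 most like the members. For the marker lists and the muscle stem cell markers only genes a result turned on were named, and Lyz2, Fabp4, Notch3, Thbs4, Tek and Pmp22 were chosen after their values were seen. Gene positions are those of the table, exon lengths come from GENCODE M21, and promoter windows from RefSeq (GRCm38.p6). Alternatives were the block, 3 scalings, a pseudocount of 0.1, other limits on mean, fold and p, limma-voom on recovered reads, and leaving out libraries.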

Additional observations from a re-analysis of the deposited data

How the results depend on the processing

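Over 17 alternatives, Dpt passed as lower in each (log2 fold change -1.78 to -1.52), and Gsn passed as higher in each except at a fold limit of 2. The median log2 fold change of the 10 genes was 0.40 to 1.12 when libraries were left out. No scaling changed the sign of any of the 10. Without control replicate 1, Ly6a (-0.16) and Dpp4 (-0.059) changed sign, and without replicate 1 of both groups they were 0.013 and 0.32. The cause was not tested. Over the fits without a library their log2 fold changes ran from -0.16 to 0.999 and from -0.059 to 1.15. Leaving out replicate 1 of both groups was added after seeing the data and, like the other fits without a library, used no block. Ly6a had 2 to 17 recovered reads a library, the fewest of the 10, where single reads count most.

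With the replicate block, 1688 genes rose, with 5 of the 10 genes, 14 other FAP genes, 6 small leucine-rich proteoglycan genes (1 fell), 8 elastic fibre genes and 1 gelsolin-family gene. The blocked adjusted p was 2.79e-06 for Dpt, 0.000315 for Gsn, 0.193 for Fbln1, 0.0855 for Mfap5, 0.145 for Dpp4 and 0.486 for Ly6a. At a fold limit of 2, 850 genes passed (520 lower, 330 higher), with 0 of the 10 higher, 3 other FAP genes higher, 1 proteoglycan gene higher, and 2 elastic fibre genes lower and 1 higher. A p limit of 0.01 after adjustment left 876 (545 lower, 331 higher), and 0 genes of the FAP, proteoglycan and elastic fibre lists rose. Upper-quartile scaling and scaling that leaves out the 100 most abundant, the ribosomal protein and the mitochondrial genes each left 1 proteoglycan gene higher.

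When libraries were left out, 456 to 3096 genes passed (288 to 1489 lower, 168 to 1607 higher), the lowest without replicate 1 of both groups, which also removes samples. Of the 10 genes 1 fell and 1 to 3 rose, the 3 without control replicate 3 (Gsn, Dcn and Clec3b). Other FAP genes counted 4 to 8 lower and 0 to 9 higher, proteoglycan genes 0 to 1 lower and 0 to 5 higher, elastic fibre genes 3 to 5 lower and 0 to 6 higher, and DPP4 relatives 0 to 1 lower.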
